A study of Mus musculus with 9 samples.

Results

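The 37 genes described here are genes of the oligodendrocyte lineage, the cells that make the myelin of the brain, measured in the cerebellum of 9 transgenic mice. They were chosen by name, as rows of the deposited count table whose Ensembl gene ID maps to a listed mouse symbol. All 37 were found among the 37816 genes of the table, and all 37 were among the 19353 genes with enough counts to be tested. The list holds 8 genes of compact myelin, 11 of the sheath's surface and cytoskeleton, 7 enzymes and secreted or stress proteins of mature oligodendrocytes, 6 transcription factors and 5 genes of progenitors and newly formed cells.

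Spinocerebellar ataxia type 3 (SCA3) is caused by an expanded CAG repeat in ATXN3. On a C57BL/6 background, all 9 mice carried human ATXN3 on a yeast artificial chromosome (YAC). The repeat was 15 CAG units long in the 3 mice of the 15Q group and 84 units in the 3 mice each of the 84Q and 84Q+IGF1 groups. The 84Q+IGF1 mice received IGF-1 at 50 mg/kg by weekly intraperitoneal injection from 9 months of age until harvest at 18 months. The methods give phosphate-buffered saline for the 15Q and 84Q mice over the same months, whereas the labels call these mice untreated. The 15Q and 84Q mice came from different sources, so that line and repeat length cannot be told apart, and no mouse without the transgene is among the 9. The whole tissue was sequenced, so that fewer oligodendrocytes and less RNA per cell cannot be told apart for any gene below.

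Oligodendrocytes arise from dividing progenitors that carry the receptors Pdgfra and Cspg4 (NG2) and depend on the transcription factors Olig1, Olig2 and Sox10. As they leave the cycle they pass through a short stage marked by Gpr17, Enpp6 and Bcas1. Myrf then switches on the genes of the sheath, whose membranes are compacted by Mbp, sealed by Cldn11 and held to the axon by adhesion proteins such as Mag. In the cerebellum these cells lie mostly in the white matter and the granular layer.

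The libraries held between 17482654 and 58269196 counts, the members between 110 and 134363 counts per library, and the floor of 3 counts lay at 0.0515 to 0.172 CPM (counts scaled to the same library total), so that no member was near it. In TPM (counts scaled by exon length and to the same total), the members made up 0.351% to 0.542% of a library. All 8 defining oligodendrocyte markers (Mbp, Mobp, Mag, Mog, Cnp, Opalin, Ermn and Cldn11) were detected in every library, with a summed level of 1577 to 2573 TPM. A pair of libraries stood apart for these genes. The median of the members' log2 levels, each taken relative to its mean over the 9 libraries, was 0.27 in 84Q replicate 1, −0.28 in 84Q+IGF1 replicate 1 and between −0.061 and 0.056 in the other 7. The first of these libraries held the highest value for 23 of the 37 members and the second the lowest for 25. The main counts and medians over the members, and most values of single members in 84Q+IGF1 against 84Q, are therefore given also without this pair of libraries. By the transcript Xist, which only female cells make in quantity, 15Q replicates 2 and 3, 84Q replicate 1 and 84Q+IGF1 replicate 2 were from females, so that the groups differed in sex ratio. With the Xist level as a covariate, Olig1, Olig2, Nkx6-2 and Enpp6 still passed in 84Q against 15Q, and 5 of the 6 members that fell in 84Q+IGF1 against 15Q still passed, without Mal.

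Compared per exon length, the members ranged over more than 2 orders of magnitude. Mbp, the basic protein that glues the cytoplasmic faces of myelin, was the most abundant member, with 1068 ± 52.1 TPM in 15Q, 1171 ± 174 TPM in 84Q, 987 ± 154 TPM in 84Q+IGF1 (mean ± SD, n = 3 mice), and took 23.2% to 25.3% of the members' summed TPM. Trf, the iron carrier transferrin, followed with 471 ± 19.2 TPM in 15Q, 505 ± 72.4 TPM in 84Q, 452 ± 46.9 TPM in 84Q+IGF1. Mobp, a small basic myelin protein, had 399 ± 32.4 TPM in 15Q, 328 ± 65.7 TPM in 84Q, 289 ± 61.1 TPM in 84Q+IGF1, and Apod, a lipid carrier, 339 ± 46.0 TPM in 15Q, 375 ± 80.3 TPM in 84Q, 339.8 ± 63.6 TPM in 84Q+IGF1. Several genes of progenitors and newly formed cells stood at the other end of the scale. Cspg4 had 6.63 ± 0.312 TPM in 15Q, 5.91 ± 0.486 TPM in 84Q, 5.67 ± 0.506 TPM in 84Q+IGF1, Pdgfra 11.4 ± 0.795 TPM in 15Q, 9.65 ± 2.60 TPM in 84Q, 8.96 ± 1.39 TPM in 84Q+IGF1, and Enpp6, a choline phosphodiesterase of newly formed oligodendrocytes, 5.66 ± 0.357 TPM in 15Q, 8.17 ± 0.467 TPM in 84Q, 6.29 ± 1.18 TPM in 84Q+IGF1. The enzyme gene Aspa, although one of the mature cell, was as low, with 6.92 ± 0.685 TPM in 15Q, 5.17 ± 0.850 TPM in 84Q, 3.85 ± 0.455 TPM in 84Q+IGF1. Bcas1, of newly formed cells, was high, with 136 ± 12.4 TPM in 15Q, 158 ± 40.6 TPM in 84Q, 141 ± 29.0 TPM in 84Q+IGF1. Genes of the mature cell together made up 89.8% to 91.5% of the members' TPM in every library. Their summed TPM was 1.04-fold that of 15Q in 84Q (SD of the ratio 0.14), 0.90-fold in 84Q+IGF1 (SD 0.12), and 0.87-fold in 84Q+IGF1 relative to 84Q (SD 0.15). This SD combines the spread of single libraries in both groups and is wider than the error of a ratio of group means. Each of these ratios differed from 1 by less than this SD, which is not a test of whether it changed.

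**Figure D1:**
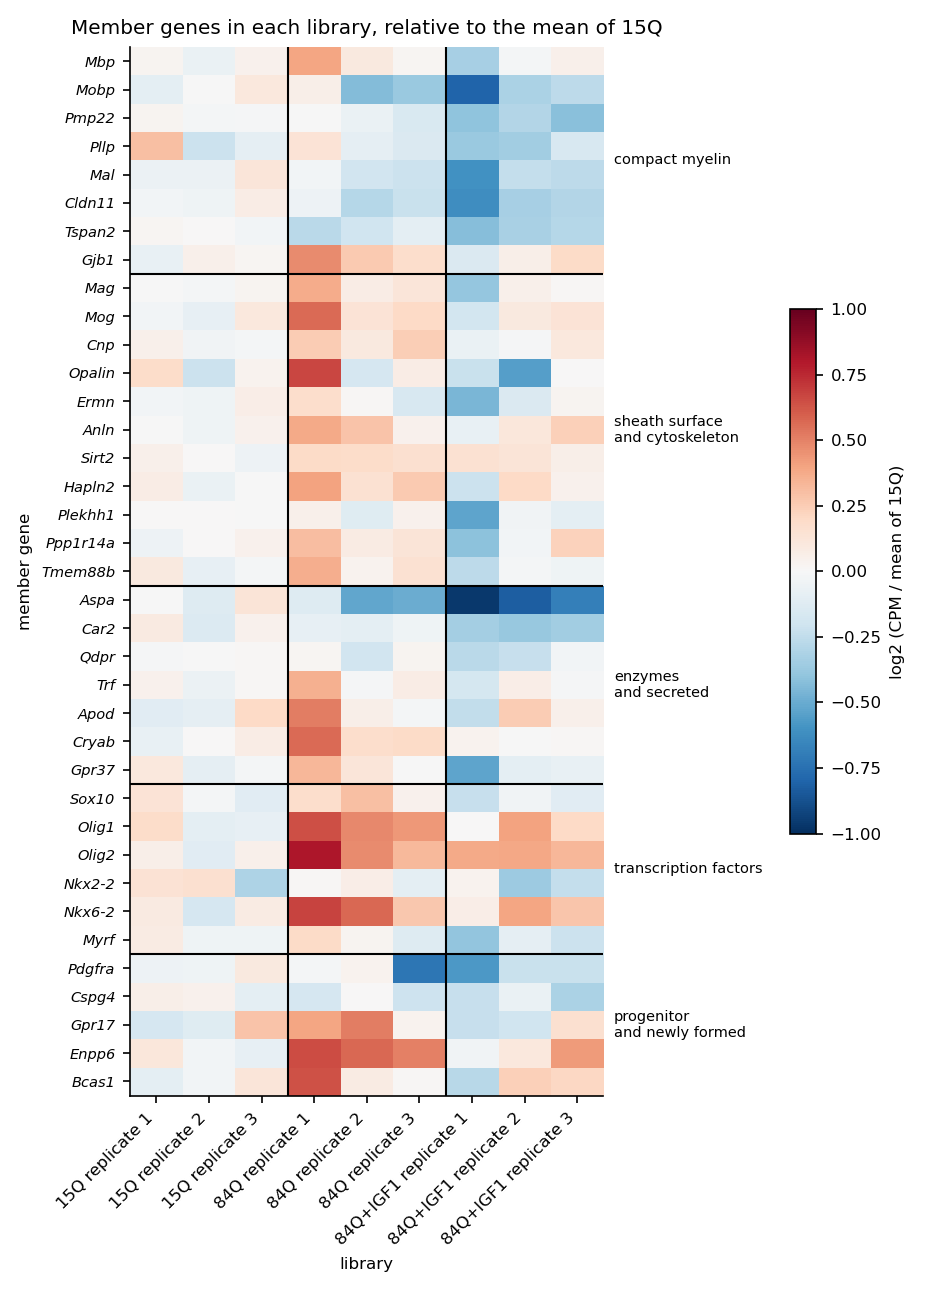
Colour shows the log2 CPM of each of the 37 genes (rows, grouped by role) in each of the 9 libraries (columns), relative to the mean of the 15Q libraries. The 84Q replicate 1 column is the reddest and the 84Q+IGF1 replicate 1 column the bluest, while Olig1, Olig2, Nkx6-2 and Enpp6 are above 15Q in all 3 84Q libraries and Aspa, Cldn11 and Tspan2 are below it in all 6 libraries with 84 repeats.

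The first question was which of these genes differed between mice with the expanded and the short repeat. In 84Q against 15Q, 5 of 37 members rose at an adjusted p under 0.1 (edgeR quasi-likelihood test, Benjamini-Hochberg adjustment over all genes tested) and 0 fell. Over all genes tested, 1.54% rose and 3.25% fell by this rule. The 5 were the transcription factors Olig1, Olig2 and Nkx6-2, the newly formed cell gene Enpp6 and the deacetylase gene Sirt2. None of the 5 reached a fold change of 1.5, the study's second threshold, so that 0 of 37 members were called by both thresholds, against 2.14% of all genes. DESeq2's Wald test called 1 member by both thresholds. The 2.14% is edgeR's share, and that of DESeq2 is not given here. At an unadjusted p under 0.05 stood 13 of 37 members, against 19.4% of all genes. The 3 libraries of 84Q all lay above those of 15Q for 12 members, against 11.9% of all genes, and all below for 3 members, against 13.5%. The members' median log2 fold change was 0.18, with 24 of 37 above 0, and that of all genes −0.0019. By role, the median was 0.35 for the 6 transcription factors, 0.27 for the 5 progenitor and newly formed cell genes, 0.20 for the 11 genes of the sheath's surface, 0.15 for the 7 enzymes and secreted proteins and −0.11 for the 8 compact myelin genes. Without 84Q replicate 1 and 84Q+IGF1 replicate 1, the median of all members dropped to 0.044, with 16 of 37 below 0, and those by role, in the same order, were 0.29, 0.044, 0.10, 0.015 and −0.14. Then 6 members passed an adjusted p of 0.1, against 8.13% of all genes, with Olig1, Olig2 and Enpp6 higher and Aspa, Cldn11 and Mobp lower. At an unadjusted p under 0.05 stood 14, against 22%, and the groups did not overlap for 12 higher and 6 lower members, against 19.6% and 21% of all genes. This comparison also depended on the 15Q libraries. Without 15Q replicate 2, and likewise without 15Q replicate 3, 0 of 37 members passed, and the adjusted p of Olig1 was then 0.144 and 0.128. Calls over all genes also varied widely with 1 library left out, as given below. The loss is therefore not read as particular to the members.

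The second question was which genes differed from 15Q in the treated mice. In 84Q+IGF1 against 15Q, 6 of 37 members fell at an adjusted p under 0.1 and 0 rose (edgeR), against 2.63% and 1.04% of all genes. The 6 were the compact myelin genes Pmp22, Mal, Cldn11 and Tspan2 and the enzymes Aspa and Car2. Aspa was the 1 member of 37 that also passed the fold threshold of 1.5, against 2.25% of all genes. All 3 treated libraries lay below those of 15Q for 11 members, against 13% of all genes, and above for 2 members, Sirt2 and Olig2, against 11.7%. The median log2 fold change was −0.11 over the members and −0.0051 over all genes, and by role it ran from −0.35 for compact myelin to 0.043 for the transcription factors. Without 84Q replicate 1 and 84Q+IGF1 replicate 1, 5 of the 6 still passed, without Mal, against 1.93% of all genes, the median of the members was −0.032, those by role ran from −0.27 for compact myelin to 0.12 for the transcription factors, and the groups did not overlap for 11 lower and 7 higher members, against 17.4% and 15.8% of all genes. Aspa, Car2, Tspan2 and Pmp22 passed in every alternative fit tried, and Cldn11 and Mal lost the call in some of them (adjusted p = 0.186 and 0.299 without 15Q replicate 3).

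The third question was what the treatment changed in mice with 84 repeats. In 84Q+IGF1 against 84Q, no gene of the genome passed an adjusted p of 0.1 in edgeR, so that 0 of 37 members were higher and 0 lower, against 0% and 0% of all genes, and DESeq2 also passed 0 members. With no filter on low counts, edgeR passed 9 members at this threshold, all lower, against 0.569% of all genes, and 0 of the 9 reached a fold change of 1.5. The members nevertheless lay on one side. All 37 had a log2 fold change below 0, between −0.48 for Opalin and −0.064 for Sirt2, with a median of −0.26 (Opalin −0.20 and Sirt2 −0.075 without the pair of libraries that stood apart), whereas 51.2% of all genes lay below 0 and their median was −0.0033. At an unadjusted p under 0.05 stood 21 of 37 members, against 4.68% of all genes. The treated libraries all lay below the untreated ones for 15 members, against 4.5% of all genes, and all above for 0, against 3.96%. The size of this shift depended on the 2 libraries that stood apart. Without 84Q replicate 1 and 84Q+IGF1 replicate 1 together, the median was −0.094 and 30 of 37 members were below 0, against 51.6% of all genes. At an unadjusted p under 0.05 then stood 4 members, against 7.86% of all genes, and the groups did not overlap for 16 lower and 2 higher members, against 18.3% and 18.4% of all genes. Since both comparisons of the 84Q group use the same 3 libraries, a high 84Q value raises the first and lowers the third, and the log2 fold changes are given side by side below rather than compared.

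With the 6 libraries of both 84-repeat groups set against 15Q in one contrast, the same 5 members were higher and the same 6 lower at an adjusted p under 0.1 (edgeR), against 3.64% and 6.11% of all genes. Aspa again was the 1 member past the fold threshold, against 3.51% of all genes, and 0 members were past it with DESeq2, with the Xist covariate or without 15Q replicate 3, 84Q replicate 2, 84Q replicate 3 or 84Q+IGF1 replicate 1 in turn. Olig2 and Sirt2 were above, and Aspa, Tspan2 and Cldn11 below, the 15Q range in all 6 libraries, Sirt2, Aspa and Cldn11 by narrow margins. The share of all genes by this rule is not given for all 9 libraries. Without the pair of libraries that stood apart, the groups did not overlap for 5 higher and 6 lower members, against 8.41% and 9.25% of all genes. Of the 11 members, 1 passed without 15Q replicate 3 and 3 without 15Q replicate 2. The calls over all genes with 1 library left out varied widely too, as given below. Without the pair of libraries that stood apart, 11 members passed, against 7.95% of all genes, with Mobp in and Sirt2 out.

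**Figure D2:**
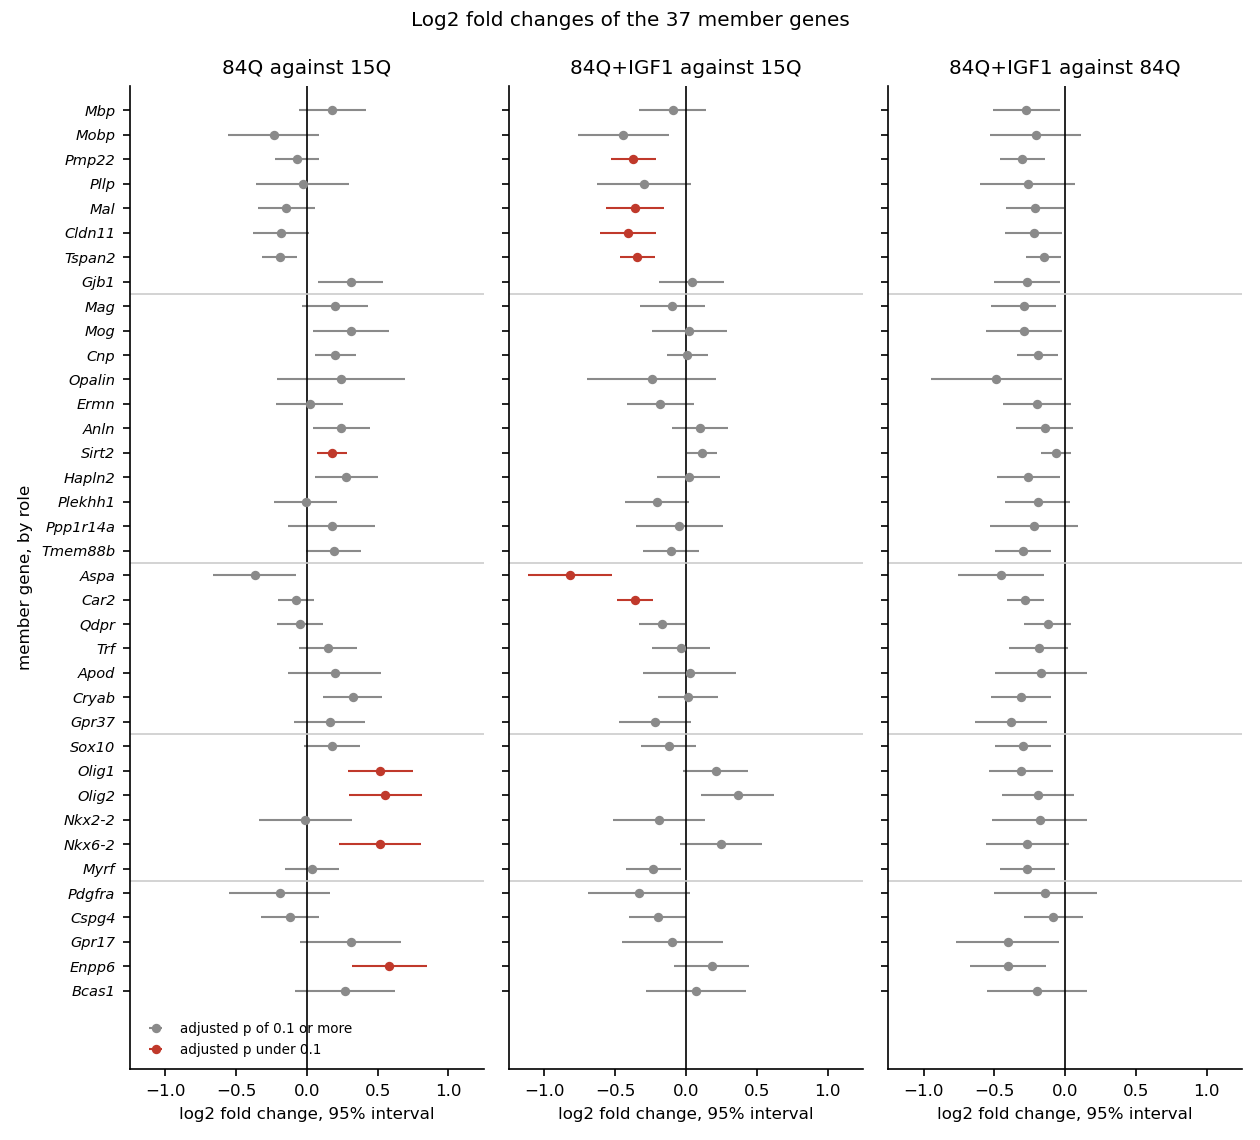
Points are log2 fold changes of the 37 genes (rows, by role) in the 3 comparisons, bars are 95% intervals, and red marks an adjusted p under 0.1. In the left panel 5 genes are red to the right of 0, in the middle panel 6 are red to the left of 0, and in the right panel every point lies left of 0 with none red.

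Among the transcription factors, the bHLH factor Olig1 showed the clearest separation of 84Q from 15Q. Olig1 stood at 53.2, 43.9 and 44.2 CPM in the 15Q libraries, 73.1, 65.5 and 63.3 CPM in the 84Q libraries and 47.0, 61.9 and 53.9 CPM in the 84Q+IGF1 libraries. All 3 84Q values were above the 15Q range, and the treated values overlapped it. For Olig1, the log2 fold change was 0.52 (SE 0.10, adjusted p = 0.0297) in 84Q against 15Q and 0.21 (95% interval −0.018 to 0.44, adjusted p = 0.322) in 84Q+IGF1 against 15Q.

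Olig2, the factor that specifies the lineage, had 13.2, 11.7 and 13.1 CPM in the 15Q libraries, 22.1, 17.5 and 15.8 CPM in the 84Q libraries and 16.4, 16.5 and 15.9 CPM in the 84Q+IGF1 libraries. Here both 84-repeat groups lay wholly above 15Q. The fitted log2 fold change was 0.56 (SE 0.12, adjusted p = 0.0381) in 84Q and 0.36 (95% interval 0.11 to 0.62, adjusted p = 0.146) in 84Q+IGF1, each against 15Q, and its adjusted p without 15Q replicates 2 and 3 in turn was 0.165 and 0.107 in 84Q. In 84Q+IGF1 against 15Q, Olig2 passed in 5 of 18 alternatives, DESeq2's Wald test among them, and not in the others. Both genes lie on chromosome 16, Olig2 at 91225457 to 91228677 and Olig1 at 91269772 to 91271933 (GRCm38), in the same orientation.

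Nkx6-2 is a homeodomain factor of maturing oligodendrocytes, and its level was 8.66, 7.25 and 8.64 CPM in the 15Q libraries, 13.0, 12.1 and 9.80 CPM in the 84Q libraries and 8.54, 10.7 and 9.87 CPM in the 84Q+IGF1 libraries. Its 84Q values lay above 15Q, with a log2 fold change of 0.52 (SE 0.13, adjusted p = 0.0752), and the treated values overlapped both groups, with 0.25 (95% interval −0.042 to 0.54, adjusted p = 0.353) against 15Q. It lost the call in 6 of the alternative fits. Sox10, which is needed through all of the lineage, overlapped between 15Q and both other groups, with 37.1, 33.3 and 31.3 CPM in the 15Q libraries, 38.2, 41.7 and 34.9 CPM in the 84Q libraries and 28.9, 33.1 and 31.3 CPM in the 84Q+IGF1 libraries. Its log2 fold change was 0.18 (95% interval −0.018 to 0.37, adjusted p = 0.304) in 84Q against 15Q and −0.12 (95% interval −0.32 to 0.073, adjusted p = 0.501) in 84Q+IGF1 against 15Q. In 84Q+IGF1 against 84Q it was −0.30 (95% interval −0.50 to −0.10, unadjusted p = 0.00633), and −0.25 (95% interval −0.51 to 0.00029) without the pair of libraries that stood apart. Without that pair, the value of Sox10 in 84Q+IGF1 against 15Q was −0.071 (95% interval −0.30 to 0.16).

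Myrf, the switch for the genes of the sheath, differed in pattern from the Olig genes. It had 96.3, 88.2 and 88.5 CPM in the 15Q libraries, 104, 92.8 and 83.0 CPM in the 84Q libraries and 69.0, 85.2 and 78.3 CPM in the 84Q+IGF1 libraries. The treated libraries lay below 15Q, and the 84Q libraries overlapped it. Myrf had a log2 fold change of 0.038 (95% interval −0.15 to 0.23, adjusted p = 0.856) in 84Q and −0.23 (95% interval −0.42 to −0.037, adjusted p = 0.206) in 84Q+IGF1, each against 15Q. The values of Myrf were −0.046 and −0.15 without the pair of libraries that stood apart. Nkx2-2, a homeodomain factor that times differentiation, overlapped between the groups, with log2 fold changes of −0.011 and −0.19.

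Enpp6 was the member with the largest positive log2 fold change in 84Q against 15Q. Its level was 9.66, 8.77 and 8.43 CPM in the 15Q libraries, 14.0, 13.3 and 12.7 CPM in the 84Q libraries and 8.71, 9.60 and 12 CPM in the 84Q+IGF1 libraries. The 84Q libraries formed a narrow band above both other groups. For Enpp6, the log2 fold change was 0.58 (SE 0.12, adjusted p = 0.0373) in 84Q against 15Q, 0.18 (95% interval −0.087 to 0.45, adjusted p = 0.467) in 84Q+IGF1 against 15Q and −0.40 (95% interval −0.67 to −0.13, unadjusted p = 0.00704) in 84Q+IGF1 against 84Q, where no adjusted p passed and the value was −0.27 (95% interval −0.58 to 0.041) without the pair of libraries that stood apart. Without 15Q replicates 2 and 3 in turn, the adjusted p of Enpp6 in 84Q was 0.148 and 0.154. In 84Q+IGF1 against 15Q, its log2 fold change ran from 0.039 to 0.28 over the alternative fits. It was 0.28 (95% interval −0.0019 to 0.56) without the pair of libraries that stood apart.

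None of the other 4 genes of early stages passed the test. Pdgfra, the PDGF receptor of progenitors, had 27.4, 27.4 and 30.2 CPM in the 15Q libraries, 27.9, 28.9 and 17.2 CPM in the 84Q libraries and 19.0, 24.2 and 24.3 CPM in the 84Q+IGF1 libraries. Only 84Q replicate 3 in that group was low, and the treated libraries all lay below 15Q. Its log2 fold change was −0.19 (95% interval −0.55 to 0.16, adjusted p = 0.559) in 84Q and −0.33 (95% interval −0.69 to 0.025, adjusted p = 0.318) in 84Q+IGF1, each against 15Q. Cspg4, the NG2 proteoglycan, had 20.3, 20.1 and 18.2 CPM in the 15Q libraries, 17.4, 19.6 and 16.9 CPM in the 84Q libraries and 16.6, 18.6 and 15.7 CPM in the 84Q+IGF1 libraries, with log2 fold changes of −0.12 (95% interval −0.32 to 0.087, adjusted p = 0.533) and −0.20 (95% interval −0.41 to 0.0033, adjusted p = 0.291). Both genes are also made outside the lineage, Pdgfra by fibroblasts and Cspg4 by pericytes. The summed level of 10 fibroblast markers was 112 to 182 TPM in 15Q and 55.3 to 95.4 TPM in the other 6 libraries, and that of 8 pericyte and smooth muscle markers 209 to 229 TPM against 167 to 195 TPM. The part of these cells in the values of Pdgfra and Cspg4 was not tested.

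Gpr17, a receptor of committed precursors, had 7.88, 8.14 and 10.8 CPM in the 15Q libraries, 11.6, 12.6 and 9.06 CPM in the 84Q libraries and 7.55, 7.68 and 9.87 CPM in the 84Q+IGF1 libraries. The groups overlapped, with a log2 fold change of 0.31 (95% interval −0.046 to 0.66, adjusted p = 0.322) in 84Q and −0.10 (95% interval −0.46 to 0.26, adjusted p = 0.790) in 84Q+IGF1, each against 15Q. Bcas1, a protein of newly formed myelinating cells, stood at 118 to 138 CPM in 15Q, 127 to 196 CPM in 84Q and 104 to 149 CPM in 84Q+IGF1, and its highest value was in 84Q replicate 1. The log2 fold change of Bcas1 in 84Q against 15Q was 0.27, and 0.044 without the pair of libraries that stood apart. In 84Q+IGF1 against 84Q it was −0.20, and 0.18 (95% interval 0.0065 to 0.35, adjusted p = 0.630) without 84Q replicate 1 and 84Q+IGF1 replicate 1.

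**Figure D3:**
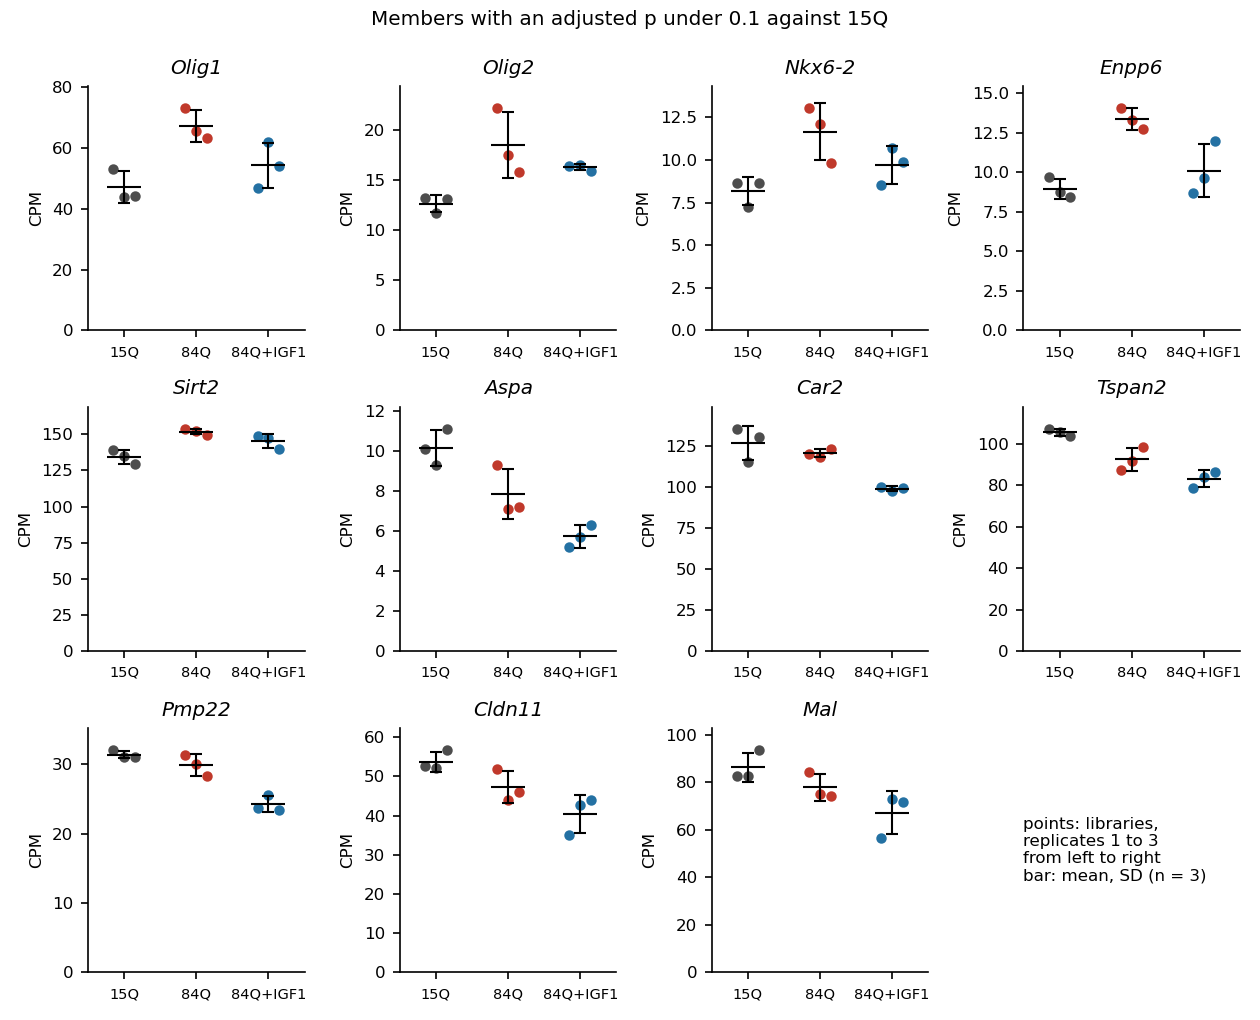
CPM of the 11 genes with an adjusted p under 0.1 against 15Q in either group, one panel per gene with the y axis from 0. Coloured points are libraries, and black bars give mean and SD (n = 3). Olig1, Olig2, Nkx6-2, Enpp6 and Sirt2 are higher in 84Q than in 15Q, and Aspa, Car2, Tspan2, Pmp22, Cldn11 and Mal are lowest in 84Q+IGF1.

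In compact myelin, Mbp and Mobp were the 2 members with the highest TPM, and neither passed the test with all libraries. Mbp stood at 2273, 2128 and 2298 CPM in the 15Q libraries, 2937, 2386 and 2265 CPM in the 84Q libraries and 1772, 2198 and 2306 CPM in the 84Q+IGF1 libraries. Its highest and lowest values were the 2 libraries named above, and the other 7 lay between 2128 and 2386 CPM. Mbp had a log2 fold change of 0.18 (95% interval −0.058 to 0.42, adjusted p = 0.392) in 84Q and −0.094 (95% interval −0.33 to 0.14, adjusted p = 0.691) in 84Q+IGF1, each against 15Q, and −0.27 (95% interval −0.51 to −0.036, unadjusted p = 0.0277) in 84Q+IGF1 against 84Q. The 3 values of Mbp were 0.060, 0.014 and −0.046, in the same order, without the pair of libraries that stood apart. Mobp had 628, 671 and 722 CPM in the 15Q libraries, 700.1, 497 and 519 CPM in the 84Q libraries and 386, 539 and 561 CPM in the 84Q+IGF1 libraries. All 3 treated values lay below 15Q, and 84Q replicate 1 was the only library with 84 repeats within the 15Q range. Its log2 fold change was −0.24 (95% interval −0.56 to 0.085, adjusted p = 0.407) in 84Q and −0.44 (95% interval −0.76 to −0.12, adjusted p = 0.154) in 84Q+IGF1, each against 15Q. Mobp passed in 84Q without the pair of libraries that stood apart, with −0.41 (95% interval −0.58 to −0.23, adjusted p = 0.0308), and its value in 84Q+IGF1 was then −0.29 (adjusted p = 0.132). With no filter on low counts it passed in both groups, and without 84Q replicate 1 in 84Q+IGF1.

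Cldn11 forms the tight junctions that seal the sheath, and had 52.6, 52.0 and 56.7 CPM in the 15Q libraries, 51.8, 44.1 and 46.0 CPM in the 84Q libraries and 35.0, 42.7 and 43.9 CPM in the 84Q+IGF1 libraries. Each library with 84 repeats lay below each 15Q library, 84Q replicate 1 by a narrow margin. Its log2 difference was −0.18 (95% interval −0.38 to 0.012, adjusted p = 0.287) in 84Q and −0.41 (SE 0.090, adjusted p = 0.0445) in 84Q+IGF1, each against 15Q. Tspan2, a tetraspanin of the myelin membrane, had 107, 106 and 104 CPM in the 15Q libraries, 87.4, 91.6 and 98.3 CPM in the 84Q libraries and 78.5, 84.2 and 86.5 CPM in the 84Q+IGF1 libraries. It too was below 15Q in all 6 libraries, and the 15Q replicates were close together (SD 1.77 CPM). For Tspan2, the log2 fold change was −0.19 (95% interval −0.31 to −0.067, adjusted p = 0.107) in 84Q and −0.34 (SE 0.057, adjusted p = 0.00809) in 84Q+IGF1.

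Pmp22, a tetraspan protein best known from peripheral myelin, separated the treated mice from both other groups. It had 32.0, 31.1 and 31.1 CPM in the 15Q libraries, 31.4, 30.0 and 28.3 CPM in the 84Q libraries and 23.7, 25.6 and 23.4 CPM in the 84Q+IGF1 libraries. No treated value reached those of 15Q or 84Q. Pmp22 had a log2 fold change of −0.069 (95% interval −0.23 to 0.088, adjusted p = 0.645) in 84Q against 15Q, −0.37 (SE 0.072, adjusted p = 0.0216) in 84Q+IGF1 against 15Q and −0.30 (95% interval −0.46 to −0.14, unadjusted p = 0.00139) in 84Q+IGF1 against 84Q. For the third comparison, the value was −0.25 (95% interval −0.45 to −0.047) without the pair of libraries that stood apart. Of 8 Schwann cell markers listed, 7 were found in the count table, and 5 exceeded 3 counts in every library. The summed level of the 7 was 27.7 to 28.5 TPM in 15Q, 25.3 to 27.2 TPM in 84Q and 24.3 to 28.1 TPM in 84Q+IGF1. Here 84Q lay below 15Q and the treated libraries overlapped both, and the part of Schwann cell RNA in the values of Pmp22 was not tested. Mal, a proteolipid of lipid rafts, had 82.6, 82.7 and 93.5 CPM in the 15Q libraries, 84.4, 75.3 and 74.2 CPM in the 84Q libraries and 56.8, 73.2 and 71.8 CPM in the 84Q+IGF1 libraries. Its treated values lay below both other groups, with a log2 fold change of −0.15 (95% interval −0.35 to 0.057, adjusted p = 0.418) in 84Q and −0.36 (SE 0.093, adjusted p = 0.0782) in 84Q+IGF1, each against 15Q.

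The remaining compact myelin genes were Gjb1, the gap junction protein connexin 32, and Pllp, the proteolipid plasmolipin. Gjb1 ranged from 15.2 to 16.5 CPM in 15Q, from 18.0 to 22.1 CPM in 84Q and from 14.4 to 18.2 CPM in 84Q+IGF1, with a log2 fold change of 0.31 (95% interval 0.078 to 0.54, adjusted p = 0.148) in 84Q against 15Q. Gjb1 is X-linked. Pllp overlapped between 15Q and the other groups, at 5.36 to 8.55 CPM over all libraries.

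On the sheath's surface, 10 of 11 genes had a log2 fold change above 0 in 84Q against 15Q, and Sirt2 alone passed in the main fit. Which of them passed depended on the processing. With no filter on low counts, Sirt2 did not pass, and Cnp, Mag, Mog, Hapln2 and Anln did. Cnp also passed with DESeq2's Wald test. Without the pair of libraries that stood apart, 3 of the 11 were below 0. Sirt2, a tubulin deacetylase of the inner sheath, had 139, 135 and 129 CPM in the 15Q libraries, 154, 152 and 149.8 CPM in the 84Q libraries and 149, 147 and 139.8 CPM in the 84Q+IGF1 libraries. The difference was small and the replicates close, and both groups with 84 repeats lay above 15Q. As a log2 fold change this was 0.18 (SE 0.050, adjusted p = 0.0919) in 84Q and 0.11 (95% interval 0.0044 to 0.22, adjusted p = 0.262) in 84Q+IGF1, each against 15Q, and the call in 84Q was lost in 11 of the alternative fits.

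Mag, the adhesion protein of the inner wrap, had 155, 153 and 159 CPM in the 15Q libraries, 202, 164 and 169.6 CPM in the 84Q libraries and 119, 161 and 157 CPM in the 84Q+IGF1 libraries. The 84Q libraries lay above 15Q, and the treated ones spread to both sides of it. For Mag, the log2 fold change was 0.20 (95% interval −0.032 to 0.43, adjusted p = 0.328) in 84Q and −0.10 (95% interval −0.33 to 0.13, adjusted p = 0.675) in 84Q+IGF1, each against 15Q, and −0.29 (95% interval −0.53 to −0.062, unadjusted p = 0.0171) in 84Q+IGF1 against 84Q. For Mag, the 3 values were 0.10, 0.030 and −0.072, in the same order, without the pair of libraries that stood apart. Mog, a surface protein of the outermost wrap, had 20.8, 20.1 and 22.9 CPM in the 15Q libraries, 31.4, 23.3 and 24.4 CPM in the 84Q libraries and 18.7, 22.8 and 23.4 CPM in the 84Q+IGF1 libraries. The 84Q libraries again lay above 15Q, and the treated ones overlapped it, with log2 fold changes of 0.31 (95% interval 0.046 to 0.58, adjusted p = 0.192) in 84Q and 0.024 (95% interval −0.24 to 0.29, adjusted p = 0.942) in 84Q+IGF1. For Mog, these were 0.17 and 0.12 without that pair of libraries. Cnp, an enzyme that keeps cytoplasmic channels in myelin open, had 252, 238 and 241 CPM in the 15Q libraries, 291, 259.8 and 289 CPM in the 84Q libraries and 232, 242 and 262 CPM in the 84Q+IGF1 libraries. Its log2 fold change was 0.20 (95% interval 0.057 to 0.35, adjusted p = 0.134) in 84Q against 15Q and 0.0092 (95% interval −0.13 to 0.15, adjusted p = 0.958) in 84Q+IGF1 against 15Q.

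Of the other genes of this group, Hapln2, a link protein of the node of Ranvier, and Ppp1r14a, a phosphatase inhibitor, were above 15Q in all 3 84Q libraries, with log2 fold changes of 0.28 and 0.17, neither past the adjusted threshold. Anln, the cytoskeletal protein anillin, had 0.24, and Tmem88b 0.19. Opalin, a sialylated membrane protein, Ermn, an actin-binding protein, and Plekhh1 overlapped between 84Q and 15Q, with log2 fold changes of 0.24, 0.019 and −0.0096. Without the pair of libraries that stood apart, these were −0.048, −0.068 and −0.038, and that of Tmem88b was 0.092. Hapln2, Ppp1r14a and Anln then had 0.21, 0.10 and 0.17. In 84Q+IGF1 against 15Q, the 11 genes lay between −0.24 and 0.11 and none passed.

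Aspa, the enzyme that breaks down N-acetylaspartate in oligodendrocytes, had the largest difference of any member. It stood at 10.1, 9.29 and 11.1 CPM in the 15Q libraries, 9.28, 7.08 and 7.18 CPM in the 84Q libraries and 5.19, 5.72 and 6.30 CPM in the 84Q+IGF1 libraries. All 6 libraries with 84 repeats lay below the 15Q minimum, 84Q replicate 1 only just, and the treated libraries lay below those of 84Q. Aspa had a log2 fold change of −0.37 (95% interval −0.66 to −0.075, adjusted p = 0.169) in 84Q against 15Q, −0.82 (SE 0.14, adjusted p = 0.00810) in 84Q+IGF1 against 15Q and −0.45 (95% interval −0.76 to −0.15, unadjusted p = 0.00700) in 84Q+IGF1 against 84Q. In that comparison it was −0.24 (95% interval −0.56 to 0.075) without the pair of libraries that stood apart.

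Car2, the cytosolic carbonic anhydrase, had 135, 115 and 130.2 CPM in the 15Q libraries, 119.7, 118 and 123 CPM in the 84Q libraries and 99.95, 97.2 and 99.2 CPM in the 84Q+IGF1 libraries. The treated values were close together (SD 1.43 CPM) and below all 6 others. In log2 terms, the difference was −0.077 (95% interval −0.21 to 0.053, adjusted p = 0.518) in 84Q against 15Q, −0.36 (SE 0.060, adjusted p = 0.00825) in 84Q+IGF1 against 15Q and −0.28 (95% interval −0.41 to −0.15, unadjusted p = 0.000530) in 84Q+IGF1 against 84Q, the smallest unadjusted p of any member in that comparison. This difference was −0.29 (95% interval −0.47 to −0.12) without the pair of libraries that stood apart. Car2, Mal and Pmp22 are also made by epithelia outside the brain. The summed level of 10 intestinal markers was 66.8 to 108 TPM in 15Q and 6.79 to 8.96 TPM in the other 6 libraries, and that of 10 epidermal markers 42.4 to 70.5 TPM against 16.95 to 25.2 TPM. The part of such RNA in the 15Q values was not tested.

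Cryab, a small heat shock protein, had 33.4, 35.2 and 36.9 CPM in the 15Q libraries, 51.9, 39.8 and 40.1 CPM in the 84Q libraries and 36.0, 35.1 and 35.4 CPM in the 84Q+IGF1 libraries, with 84Q above 15Q and a log2 fold change of 0.32 (95% interval 0.11 to 0.53, adjusted p = 0.108), or 0.18 without the pair of libraries that stood apart. Cryab is also made by muscle. Of 10 skeletal muscle markers listed, 9 were found in the count table. Their summed level was 739 to 752 TPM in 15Q, 768 to 888 TPM in 84Q and 825 to 906 TPM in 84Q+IGF1, nearly all of it Pvalb, which cerebellar neurons make too. Without Pvalb it was 30.9 to 45.9 TPM in 15Q, 8.33 to 13.1 TPM in 84Q and 9.51 to 12.5 TPM in 84Q+IGF1, and the part of muscle RNA in the values of Cryab was not tested. Trf, Apod, Gpr37 (an orphan receptor) and Qdpr (dihydropteridine reductase) passed in no comparison, and their log2 fold changes lay between −0.046 and 0.20 in 84Q and between −0.22 and 0.026 in 84Q+IGF1, each against 15Q. Trf, Apod and Gpr37, without the pair of libraries that stood apart, had 0.033, 0.015 and 0.064 in 84Q against 15Q. Transferrin is also made by the choroid plexus. The summed level of 12 choroid plexus markers was 1780 to 3667 TPM in 15Q replicates 1 and 3 and 84Q replicate 2 and 92.8 to 216 TPM in the other 6. The part of choroid plexus RNA in the values of Trf was not tested.

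Ratios between members remove only what changes both genes of a pair alike in a library. The pairs below were chosen after the values were seen, and no test was run on them. The side of 15Q on which they lay thus follows in part from this choice. On the log2 scale and relative to the mean of 15Q, the ratio of Olig2 to Cldn11 was 0.87, 0.76 and 0.55 in the 84Q libraries and 0.996, 0.72 and 0.63 in the treated ones, where the 15Q libraries lay between −0.066 and 0.091. The ratio of Mobp to Mbp was −0.34, −0.53 and −0.40 in 84Q and −0.47, −0.30 and −0.31 in 84Q+IGF1, with 15Q between −0.13 and 0.066. The ratio of Aspa to Mag was −0.50, −0.60 and −0.62 in 84Q and −0.58, −0.87 and −0.69 in 84Q+IGF1, with 15Q between −0.10 and 0.10. In each of these ratios, both groups with 84 repeats lay on the same side of 15Q. The ratio of Pdgfra to Olig2 had a mean of −0.77 ± 0.31 in 84Q and −0.71 ± 0.22 in 84Q+IGF1 (SD, n = 3), against an SD of 0.096 in 15Q.

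**Figure D4:**
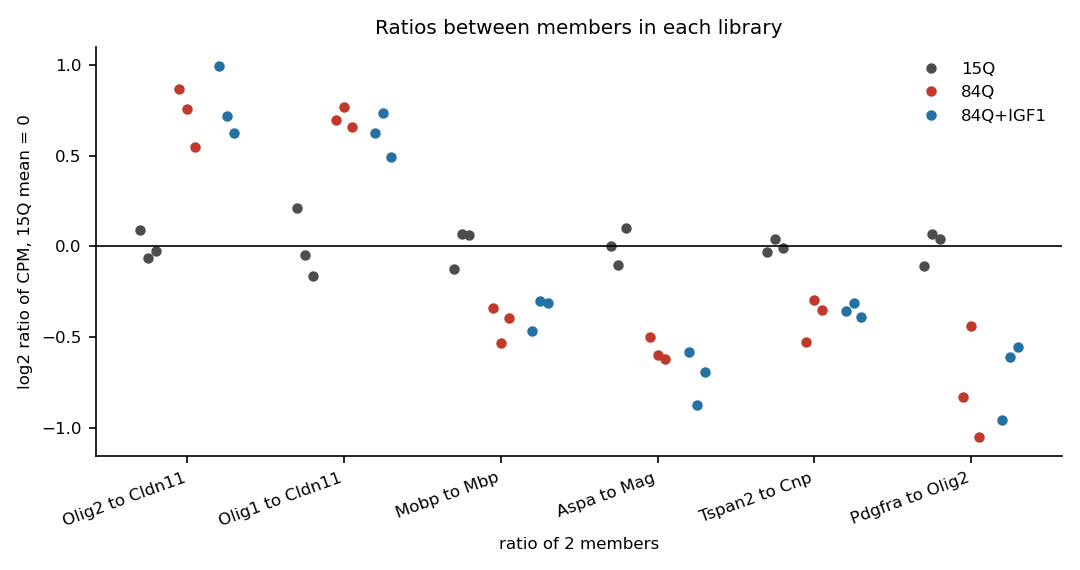
Points are libraries, and the y axis is the log2 ratio of the CPM of 2 members with the mean of the 15Q libraries set to 0, for 6 pairs. In each pair the 15Q points lie around 0, and the points of 84Q and 84Q+IGF1 lie together above it (Olig2 or Olig1 to Cldn11) or below it (the other 4).

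How far each gene followed the common level was described by a correlation over the 9 libraries. It was taken between the gene's log2 CPM and the mean of the other mature members. The members of one library share its depth and dissection, and depth differed between libraries. Pearson's r was 0.95 for Gpr37, 0.94 for Mbp, 0.92 for Mag and 0.91 for Tmem88b. It was 0.26 for Olig2, 0.19 for Cspg4, 0.053 for Nkx2-2 and −0.028 for Sirt2. These values include the differences between groups. Within groups, taken from deviations from the group means, r was 0.98 for Mbp, 0.94 for Mag and 0.63 for Olig2. It was 0.11 for Car2, 0.014 for Tspan2, −0.24 for Cspg4, −0.30 for Sirt2 and −0.46 for Nkx2-2. Sirt2, Cspg4 and Nkx2-2 were thus among the lowest in both, and Olig2 only where the differences between groups were included.

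A list of 50 other oligodendrocyte genes was set beside the members. Of its 37 mature genes, all tested, 4 were higher and 2 lower in 84Q against 15Q at an adjusted p under 0.1 (edgeR), against 1.54% and 3.25% of all genes, 0 were higher and 6 lower in 84Q+IGF1 against 15Q, against 1.04% and 2.63%, and none passed in 84Q+IGF1 against 84Q. Of its 13 progenitor genes, 12 were tested and 1, Neu4, was higher in 84Q against 15Q. Fa2h and Ugt8a, which make the galactolipids of myelin, were lower in 84Q+IGF1 than in 15Q, with log2 fold changes of −0.39 (SE 0.076, adjusted p = 0.0236) and −0.48 (SE 0.11, adjusted p = 0.0495). Il33, a nuclear cytokine of mature oligodendrocytes, was lower in both groups, with −0.75 (SE 0.16, adjusted p = 0.0407) in 84Q and −1.11 (SE 0.16, adjusted p = 0.00372) in 84Q+IGF1. The median log2 fold change of the 37 mature genes was 0.099 in 84Q and −0.052 in 84Q+IGF1, each against 15Q, and −0.13 in 84Q+IGF1 against 84Q, where 32 of them lay below 0, against 51.2% of all genes. Without the pair of libraries that stood apart, these medians were 0.042, −0.0077 and −0.056, in the same order. In 84Q+IGF1 against 84Q, 26 of the mature genes were then below 0, against 51.6% of all genes. The 12 progenitor genes had a median of −0.046 in that comparison, with 6 below 0, and of 0.073 without that pair, with 4 below 0.

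The start regions of 6 of the 11 members that rose or fell are shown, 3 of each direction, because 5 members rose in one comparison and 6 fell in another. The 6 were picked from those with a single window, after the values were seen. RefSeq promoter windows (GRCm38.p6) matched 28 of the 37 members by symbol, and Olig1, Car2, Sox10, Myrf, Mbp, Trf, Cryab, Gpr17 and Bcas1 had no entry. The 250 bases before the start were searched on both strands for ACAAAG (the core of SOX sites), CAGCTG (an E-box), CTGGNAC (MYRF), CCAAT and TATAAA, the last 2 added after the windows were read. Over all 32851 windows of this length, 16.5% held ACAAAG, 13% CAGCTG, 16.1% CTGGNAC, 33.8% CCAAT and 12.4% TATAAA. The 28 members had 37 windows, since some have several starts, and 9 of these held ACAAAG, 2 CAGCTG, 11 CTGGNAC, 14 CCAAT and 3 TATAAA. Each sequence below runs 5′ to 3′ on the gene's strand, with matches on either strand in capitals and bases of annotated exons (GENCODE vM21) left out. The first 3 belong to genes that rose in 84Q against 15Q, namely Olig2 at chr16:91225300-91225456 on the plus strand, Nkx6-2 at chr7:139582798-139583047 on the minus strand and Enpp6 at chr8:46986637-46986886 on the plus strand. The last 3 belong to genes that fell in 84Q+IGF1 against 15Q, namely Aspa at chr11:73324638-73324887 on the minus strand, Cldn11 at chr3:31149670-31149919 on the plus strand and Mal at chr2:127656696-127656945 on the minus strand.
Olig2: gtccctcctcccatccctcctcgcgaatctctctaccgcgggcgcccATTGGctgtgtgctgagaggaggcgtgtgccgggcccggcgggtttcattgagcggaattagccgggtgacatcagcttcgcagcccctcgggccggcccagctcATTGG
Nkx6-2: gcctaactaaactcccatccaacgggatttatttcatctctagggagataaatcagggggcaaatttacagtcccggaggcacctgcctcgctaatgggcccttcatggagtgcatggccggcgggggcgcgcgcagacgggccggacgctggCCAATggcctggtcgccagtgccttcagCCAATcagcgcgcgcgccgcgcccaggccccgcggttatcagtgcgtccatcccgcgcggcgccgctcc
Enpp6: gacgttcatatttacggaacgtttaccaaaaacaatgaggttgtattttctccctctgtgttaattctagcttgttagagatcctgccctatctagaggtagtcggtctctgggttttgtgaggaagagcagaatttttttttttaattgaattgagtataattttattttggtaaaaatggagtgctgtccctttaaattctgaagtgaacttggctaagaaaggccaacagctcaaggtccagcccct
Aspa: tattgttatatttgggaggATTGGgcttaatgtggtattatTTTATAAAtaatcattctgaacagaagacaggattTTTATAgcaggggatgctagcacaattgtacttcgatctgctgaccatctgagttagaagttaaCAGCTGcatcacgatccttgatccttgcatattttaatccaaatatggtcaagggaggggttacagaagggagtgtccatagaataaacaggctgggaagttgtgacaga
Cldn11: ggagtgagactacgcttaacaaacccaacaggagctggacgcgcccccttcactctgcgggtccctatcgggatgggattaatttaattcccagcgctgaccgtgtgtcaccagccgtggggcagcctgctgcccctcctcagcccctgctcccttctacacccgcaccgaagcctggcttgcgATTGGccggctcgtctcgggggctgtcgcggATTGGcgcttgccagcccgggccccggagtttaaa
Mal: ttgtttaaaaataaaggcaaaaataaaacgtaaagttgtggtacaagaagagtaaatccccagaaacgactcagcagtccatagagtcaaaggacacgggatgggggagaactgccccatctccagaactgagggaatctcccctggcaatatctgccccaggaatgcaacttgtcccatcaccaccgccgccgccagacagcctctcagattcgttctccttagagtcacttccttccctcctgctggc
The capitals are CCAAT matches (ATTGG on the other strand) in Olig2, Nkx6-2 and Cldn11, with 2 in each. The window of Olig2 also held TATAAA, in the exon bases left out here. In Aspa they are 1 CCAAT match, 1 CAGCTG match and 3 matches of TATAAA or its complement, 2 of which overlap. Enpp6 and Mal held none of the 5 motifs. G and C made up 66.9% of the Olig2 stretch, 65.2% of Nkx6-2, 63.6% of Cldn11, 50% of Mal, 38.8% of Aspa and 38.4% of Enpp6, where the median window had 52.4%. Of the other members that rose or fell and had an entry, Sirt2 held CCAAT in its 1 window, Tspan2 ACAAAG in 1 of 2 windows, and Pmp22 CTGGNAC in 1 and CCAAT in 2 of 4 windows. The Aspa window lies within the gene as GENCODE gives it (chromosome 11, 73304992 to 73329596), before a start listed by RefSeq.

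Some members share exon bases with other genes, and the strand setting of the counting is not stated, so that reads of a pair may not be told apart. Trf shares 63.5% of its exon bases with Gm20425 on the same strand, and Pllp 54.2% with Gm45767, Cryab 17.04% with Hspb2, Plekhh1 14.8% with Pigh, Nkx6-2 12.9% with Inpp5a, Olig1 7.26% with Gm15966, Tspan2 1.85% with Tspan2os and Sirt2 0.83% with Nfkbib, all on the opposite strand. For Aspa, Car2, Cldn11, Mal, Pmp22, Olig2 and Enpp6 no exon overlap was found in the annotation.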

How the data were processed

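RNA of the cerebellum of 9 mice, 3 per group, was sequenced with paired-end reads. Per the submitters' processing notes, the authors used bcl2fastq 2.20, Trimmomatic 0.36, HISAT2 2.2.0 and featureCounts with the mm10 genome, and deposited raw read counts per gene. The annotation and the strand setting of the counting are not given in the sources used here. Counts summed to between 17482654 and 58269196 per library.

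The deposited counts were tested with edgeR 4.0.16 (R 4.3.3), after filterByExpr and TMM normalization, in 1 quasi-likelihood model of all 9 libraries, with two-sided tests adjusted over the 19353 genes kept. Thresholds were an adjusted p of 0.1 and a fold change of 1.5, as in the study's methods. CPM used TMM-scaled totals, log2 CPM a prior count of 2, and TPM the union of exons in GENCODE vM21 (37681 genes with a length). Gene symbols were matched by Ensembl ID, and 135 IDs had none. The steps were tested on simulated data.

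The members, gene lists and motifs were chosen with earlier results of these data known. Full statistics are given for members past an adjusted p of 0.1, for the 3 members with the smallest p in each comparison of 2 groups and for 13 set by name, and other members by levels and ranges. Replicates differed beyond sampling noise (chi-square per gene 9.84 to 16.2, where noise gives 1). Replicate numbers came from the labels. Alternatives were DESeq2 1.42.0, its size factors in edgeR, no low-count filter, stricter or no thresholds, robust shrinkage, only the 2 groups compared, a block for the replicate number, an Xist covariate and each library left out. Leaving out 2 libraries together was added after seeing the data.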

Additional observations from a re-analysis of the deposited data

How the results depend on the processing

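The members at an adjusted p under 0.1 in 84Q against 15Q (5) became 9 with DESeq2's Wald test, 15 with no filter on low counts (13 higher and 2 lower, against 2.18% and 4.32% of all genes), 3 at an adjusted p under 0.05 and between 0 and 7 with 1 library left out. The members at this threshold in 84Q+IGF1 against 15Q (6) became 13 with no filter (2 higher and 11 lower, against 1.54% and 4.71%), and in 84Q+IGF1 against 84Q (0) they became 9, all lower, against 0.569%. For both 84-repeat groups against 15Q (11) they became 5 at an adjusted p under 0.05, 6 with the Xist covariate and between 1 and 10 with 1 library left out. Members called with the fold threshold in 84Q against 15Q (0) became 1 with DESeq2's test, with DESeq2's size factors or with the Xist covariate, and 0 to 3 with 1 library left out, and for both groups (1) they became 0 with DESeq2's test or the Xist covariate and 0 to 1 with 1 library left out. Without the fold threshold, these counts were 5, 6 and 11 in the 3 comparisons with 15Q. For DESeq2, the stricter adjusted p, the Xist covariate and the fits with 1 library left out, no share of all genes is given at the matching threshold. Member counts under these settings are therefore not read as particular to the members.

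Over all genes, those called in 84Q against 15Q (414), 84Q+IGF1 against 15Q (435), both groups against 15Q (680) and 84Q+IGF1 against 84Q (0) became 1025, 1284, 1568 and 168 with no filter. They became 243, 281 and 429 in the first 3 at an adjusted p under 0.05, and 928, 711 and 1886 with no fold threshold. The Xist covariate gave 274 in 84Q against 15Q and 450 in both groups, and DESeq2's test gave 6 in 84Q+IGF1 against 84Q. With 1 library left out, the 4 counts ranged from 184 to 551, 226 to 629, 275 to 889 and 0 to 9.

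With the replicate number as a replicate block, 242 genes were called in 84Q against 15Q and 271 in 84Q+IGF1 against 15Q, and the members at an adjusted p under 0.1 were 3 in 84Q against 15Q and 5 in both groups against 15Q. The numbers did not pair the mice: deviations of same-numbered libraries correlated between −0.309 and 0.0788.

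With both replicates 1 of the 84-repeat groups left out, 632 genes were called in 84Q against 15Q, and the members' median log2 fold change was 0.044 in 84Q against 15Q and −0.094 in 84Q+IGF1 against 84Q. With 1 library left out, the first of these medians lay between 0.044 and 0.22. With both replicates 1 left out, the sign changed for 3 of 37 members in 84Q against 15Q (Opalin, Ermn and Myrf), 4 in 84Q+IGF1 against 15Q (Mbp, Mag, Ppp1r14a and Trf) and 7 in 84Q+IGF1 against 84Q (Mobp, Ermn, Anln, Ppp1r14a, Apod, Pdgfra and Bcas1). The log2 fold change was then −0.046 for Myrf in 84Q against 15Q, 0.014 for Mbp and 0.030 for Mag in 84Q+IGF1 against 15Q, and 0.11 for Mobp and 0.066 for Pdgfra in 84Q+IGF1 against 84Q. With 1 library left out, it ran from −0.046 to 0.11 for Myrf and from −0.31 to 0.0051 for Pdgfra in 84Q against 15Q. In 84Q+IGF1 against 15Q it then ran from −0.17 to 0.015 for Mbp, −0.17 to 0.031 for Mag, −0.035 to 0.12 for Mog, −0.038 to 0.049 for Cnp and −0.23 to 0.069 for Gpr17. The cause of these changes was not tested. The members had at least 110 counts in each library, and the part of depth in these changes was not tested.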

Other observations

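Among the cell types around the oligodendrocytes, the summed level of 10 astrocyte and Bergmann glia markers was 3190 to 4225 TPM, that of 10 granule cell markers 5303 to 6092 TPM and that of 10 Purkinje cell markers 4661 to 5253 TPM over the 9 libraries, with overlapping groups in each. The 10 microglia markers summed to 337 to 466 TPM in 15Q, 411 to 530 TPM in 84Q and 380 to 408 TPM in 84Q+IGF1, and the highest value was again in 84Q replicate 1. The 84Q+IGF1 replicate 1 library, lowest for most members, held the lowest summed astrocyte level and the highest granule and Purkinje cell levels of the 9.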
